A study of Rattus norvegicus with 12 samples.

Results

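The 7 miRNAs described here, miR-223-3p, miR-142-3p, miR-142-5p, miR-150-5p, miR-155-5p, miR-146a-5p and miR-146b-5p, are linked to leukocytes and inflammation and were followed in the left ventricle of male Wistar rats after a sham operation (Sham), after myocardial infarction with saline (MI), and after myocardial infarction with Yiqifumai injection at 5 mg/kg/day for 28 days (YQFM). They were chosen by name, and all 7 were among the 758 rat miRNAs on the array. Of these, 4 were detected on all 12 arrays, miR-146b-5p was detected on 5 arrays, and both arms of miR-142 were detected on 0 arrays. None of the 5 that could be tested passed an adjusted p of 0.05 in any of the 3 comparisons, MI against Sham, YQFM against MI and YQFM against Sham. The least even member was miR-146b-5p. Its signal, averaged over 2 probes, was higher on each of the 4 MI arrays than on any Sham array. On the shorter probe all Sham arrays and MI replicate 3 lay below the floor, under which signals were not ordered. That probe alone therefore could not decide whether the groups separate. The difference followed the slides of the arrays as well as the groups.

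The age of the rats was not given in the sources used here. MI rats had the left anterior descending coronary artery ligated and received saline, Sham rats had the operation without the ligature and received saline, and YQFM rats had the ligature and received Yiqifumai injection, a botanical drug, from 4 weeks after the operation. RNA was taken from the left ventricle near the infarction area of 4 rats per group, and each rat's RNA was hybridized with a single dye to its own Agilent miRNA array. The source names of MI replicate 4 and of Sham replicate 4 (2 arrays) disagreed with their titles and group entries, and the latter were used here.

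A miRNA is a short RNA that pairs, mainly through its seed at bases 2 to 8, with mRNAs and lowers their translation or stability. miR-142 and miR-223 are made in blood-forming cells, miR-223 above all in neutrophils and monocytes, and miR-150 in mature lymphocytes. miR-155 is processed from a long non-coding transcript that is induced in activated macrophages and lymphocytes, and it represses Socs1, a brake on cytokine signaling. miR-146a and miR-146b repress Irak1 and Traf6, adaptors of Toll-like receptor signaling, and miR-146a is itself induced by NF-kB. After an infarction neutrophils enter the injured muscle first, followed by monocytes and lymphocytes, while a scar is built by fibroblasts.

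Mature sequences for 6 of the 7 were taken from RefSeq (GRCr8 assembly) and are shown since the seed and the few bases that separate miR-146a-5p from miR-146b-5p decide what the array probes can tell apart. They run from 5′ to 3′ with the seed in capitals.
rno-miR-223-3p: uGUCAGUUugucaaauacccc
rno-miR-142-3p: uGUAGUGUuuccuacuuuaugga
rno-miR-142-5p: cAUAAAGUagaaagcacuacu
rno-miR-155-5p: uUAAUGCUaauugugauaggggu
rno-miR-146a-5p: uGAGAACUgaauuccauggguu
rno-miR-146b-5p: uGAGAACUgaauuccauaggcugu
The 6 sequences held 5 different seeds, because miR-146a-5p and miR-146b-5p shared theirs. These 2 miRNAs were the same over their first 17 bases and differed at 2 of the 22 bases that can be set side by side, G18A and U21C (miR-146a-5p first, positions from 1 at its 5′ end), and miR-146b-5p was 2 bases longer.

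On GRCr8 miR-223-3p lay at chrX:65151450-65151470 on the plus strand, where the annotation also placed a long non-coding RNA gene. miR-142-5p lay at chr10:73055119-73055139 and miR-142-3p at chr10:73055155-73055177, both on the plus strand within the span of the protein-coding gene Tspoap1. miR-155-5p lay at chr11:37261117-37261139 on the plus strand, inside its host gene Mir155hg. miR-146a-5p lay at chr10:28350053-28350074 on the minus strand within a long non-coding RNA gene, and miR-146b-5p at chr1:255144874-255144897 on the plus strand within the span of C1h10orf95. The annotation table gave spans only, so exons and introns were not told apart.

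Between 211 and 268 miRNAs were detected per array, and 471 were detected on no array. No spot was saturated. MI replicates 1 to 3 lay on slide 1, MI replicate 4 with YQFM replicate 1 on slide 2, and the 4 Sham arrays with YQFM replicates 2 to 4 on slide 3. MI and Sham never shared a slide. Signals are linear intensities scaled between arrays, with a floor of 5.20 below which they were not ordered, and their level can be compared between arrays but not between miRNAs. Of 6 cardiomyocyte miRNAs, 4 were detected on all arrays, as in heart muscle, while miR-208a-3p was detected on 1 and miR-208b-3p on 0. Of 4 leukocyte markers, all of them members, 2 were detected on all arrays (miR-223-3p and miR-150-5p). On the MI arrays the sum of all 4 leukocyte marker signals ran from 171 to 216. It was 184 to 228 on the YQFM arrays and 186 to 213 on the Sham arrays, so that the 3 groups overlapped. The bright miR-150-5p made up most of this sum, with a Sham mean of 158 beside 201 for the sum. Both undetected arms of miR-142 were added at their measured values, below 0 for miR-142-5p. The sum therefore mainly restated miR-150-5p and did not measure leukocyte content over 4 markers.

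Of the miRNAs of the myeloid and blood-forming lineage only miR-223-3p could be tested, and its groups differed by less than the spread of the arrays. miR-223-3p had scaled signals of 45.7, 39.5, 38.3 and 37.3 on the Sham arrays, 45.3, 32.9, 29.6 and 42.7 on the MI arrays, and 46.4, 38.6, 37.8 and 29.9 on the YQFM arrays. The groups overlapped, and the highest array of each was close to that of the others. The means were in the order Sham (40.2 ± 3.77, SD, n = 4), YQFM (38.2 ± 6.71) and MI (37.6 ± 7.53), and no neighbors in this order differed by more than their spread. MI against Sham gave a log2 ratio of -0.11 (95% confidence interval -0.47 to 0.25, adjusted p = 0.711 from limma). In whole tissue, fewer cells of a type and less RNA per cell cannot be told apart.

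Neither arm of miR-142 was well above background on any array. miR-142-3p read 2.97, 4.34, 6.45 and 4.74 in Sham, 5.27, 3.32, 4.82 and 4.84 in MI, and 5.16, 4.20, 4.04 and 4.66 in YQFM. These values lay around the floor and carry no order. miR-142-5p was below 0 after background subtraction on all 12 arrays, from -3.15 to -1.04. Its probes covered 18 and 19 of its 21 bases, and those of miR-142-3p 22 and 23 of 23. In the deposited table of processed values, miR-142-5p was at the minimum of 0.1 on all arrays, and miR-142-3p was above it on 5 of 12. Neither arm could be tested, and no fold is given.

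The lymphocyte miRNA miR-150-5p was the most even of the members. Its scaled signal was 167, 143.6, 157 and 166 in Sham, 164, 136, 151 and 169 in MI, and 169, 153, 190 and 151 in YQFM. The lowest array was an MI array and the highest a YQFM array, with the rest of each group interleaved. The order of the means was YQFM (166 ± 17.9, SD, n = 4), Sham (158 ± 10.8) and MI (154.96 ± 14.7), again with no step larger than the spread. MI against Sham gave a log2 ratio of -0.03 (95% confidence interval -0.26 to 0.19, adjusted p = 0.890 from limma), or a fold of 0.835 to 1.14. miR-150-5p varied less within groups than most miRNAs, with a pooled SD of 0.13 on the log2 scale, at percentile 8.96 among 201 miRNAs. Its opposite arm, miR-150-3p, had a log2 ratio of -0.03 for MI to Sham and of -0.17 for YQFM to MI (adjusted p = 0.860 and 0.339 from limma). For YQFM to Sham it was -0.21 (unadjusted p = 0.0412, adjusted p = 0.664 from limma), and each YQFM array (318 to 343) lay below each Sham array (348 to 405), as was the case for 16 of the 263 tested miRNAs (6.08%). The opposite arms of miR-223-3p, miR-155-5p, miR-146a-5p and miR-146b-5p were detected on 0 arrays.

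miR-155-5p, the miRNA of activated macrophages and lymphocytes, read 104, 91.9, 95.9 and 96.2 in Sham, 125.3, 94.4, 91.4 and 84.4 in MI, and 86.5, 96.1, 87.8 and 79.2 in YQFM. MI replicate 1 stood above all other arrays and YQFM replicate 4 below them, and the MI arrays spanned the Sham arrays on both sides. The means were in the order MI (98.9 ± 18.1, SD, n = 4), Sham (96.9 ± 4.91) and YQFM (87.4 ± 6.93). MI and Sham differed by a log2 ratio of 0.01 (95% confidence interval -0.25 to 0.28, adjusted p = 0.971 from limma). The log2 ratio of YQFM to MI was -0.16 (standard error 0.120, adjusted p = 0.520) and YQFM to Sham gave -0.15 (adjusted p = 0.689). For YQFM against Sham the exact permutation test (two-sided) gave p = 0.0857, where 4 arrays against 4 allow no p below 0.0286. On slide 3 alone, with 3 YQFM and 4 Sham arrays, the log2 ratio was likewise -0.15 (adjusted p = 0.490 from limma).

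miR-146a-5p, the NF-kB-induced repressor of Irak1 and Traf6, read 66.6, 51.3, 57.8 and 72.8 in Sham, 72.1, 55.2, 59.5 and 58.3 in MI, and 91.2, 56.0, 59.2 and 63.3 in YQFM. The array of YQFM replicate 1 was the highest of all 12, and the other 11 ranged from 51.3 to 72.8 with the 3 groups interleaved. The order of the means was YQFM (67.4 ± 16.1, SD, n = 4), Sham (62.1 ± 9.46) and MI (61.3 ± 7.43), with steps smaller than the spread. MI against Sham gave a log2 ratio of -0.01 (95% confidence interval -0.38 to 0.35, adjusted p = 0.972 from limma), and YQFM against MI gave 0.12 (adjusted p = 0.841). Without YQFM replicate 1 the latter was -0.04, so its sign rested on that array. On slide 2, the only slide with an array of both groups, YQFM replicate 1 exceeded MI replicate 4 by 0.65 on the log2 scale, with 1 array each and no test.

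miR-146b-5p, which shares the seed of miR-146a-5p, was the member whose groups were least alike. Its scaled signal was 16.0, 12.6, 6.65 and 9.68 on the MI arrays, where it was detected on 3 of 4. On the Sham arrays it was 6.48, 4.89, 5.45 and 6.24, and it was not well above background on any of them. On the YQFM arrays it was 17.9, 5.97, 4.98 and 7.27, with detection on replicates 1 and 4. Each MI array was above each Sham array, while the YQFM arrays covered nearly the whole range. The order of the means was MI (11.2 ± 4.00, SD, n = 4), YQFM (9.04 ± 6.01) and Sham (5.76 ± 0.729). MI and YQFM differed by less than their spread, and so did YQFM and Sham.

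For MI against Sham the log2 ratio of miR-146b-5p was 0.88 (standard error 0.367, 95% confidence interval 0.07 to 1.68). Its unadjusted p was 0.0361 and its adjusted p was 0.136 from limma, rank 70 among the 263 miRNAs tested, so it did not pass the threshold. The exact two-sided permutation test gave p = 0.0286, the smallest that 4 arrays against 4 allow. miR-146b-5p was admitted to the tests only through its detection in MI (3 of 4 arrays) and YQFM (2 of 4). Its tests against Sham are therefore not independent of that filter. This log2 ratio, a difference of mean log2 signals taken with the floor of 5.20, is an estimate of 1.83-fold, with an interval from 1.05 to 3.21. Because miR-146b-5p was not well above background in Sham, its level there was not well measured. In Sham 1 array lay at the floor, and MI replicate 3, also without detection, entered at its measured value. Among all 263 tested miRNAs, 1 had each MI array above each Sham array (0.38%), and it was miR-146b-5p. This count covers the upward direction only, and separation with MI below Sham is not given here. Of the 19 miRNAs called in MI against Sham, 18 were lower in MI. The nearest arrays were MI replicate 3 (6.65) and Sham replicate 1 (6.48), and miR-146b-5p was detected on neither. The 2 probes of the miRNA differed in how clearly they were detected. The probe of 21 bases, well above background on 5 arrays, gave 0.88, and the probe of 20 bases, well above background on 2 arrays, gave 0.46. On the probe of 20 bases all 4 Sham arrays (2.90 to 3.95) and MI replicate 3 (3.78) lay below the floor and were set to it. The ratio of that probe was therefore taken against the floor and not against a measured Sham level.

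The difference in miR-146b-5p followed the slides. On slide 1, with MI replicates 1 to 3, the scaled signal ran from 6.65 to 16.0. On slide 2 it was 9.68 in MI replicate 4 and 17.9 in YQFM replicate 1, and on slide 3, with all Sham arrays and 3 YQFM arrays, it ran from 4.89 to 7.27. Within slide 3 the log2 ratio of YQFM to Sham was 0.07 (adjusted p = 0.818 from limma), against 0.45 (adjusted p = 0.689) over all arrays. With the slide as a block, MI and Sham were linked only through the YQFM arrays. The link to MI was a single pair, YQFM replicate 1 and MI replicate 4 on slide 2, which differed by 0.89 (log2). The MI to Sham ratio (log2) then turned to -0.83 (adjusted p = 0.680 from limma), a sign that rested on this pair. With the slide as a random block it was 0.18 (adjusted p = 0.933). The call also depended on single arrays, since without YQFM replicate 1 the adjusted p for MI against Sham was 0.0439, and without slide 2 it was 0.0287 at a log2 ratio of 0.92. Slide and infarction cannot be told apart for this comparison.

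**Figure D1:**
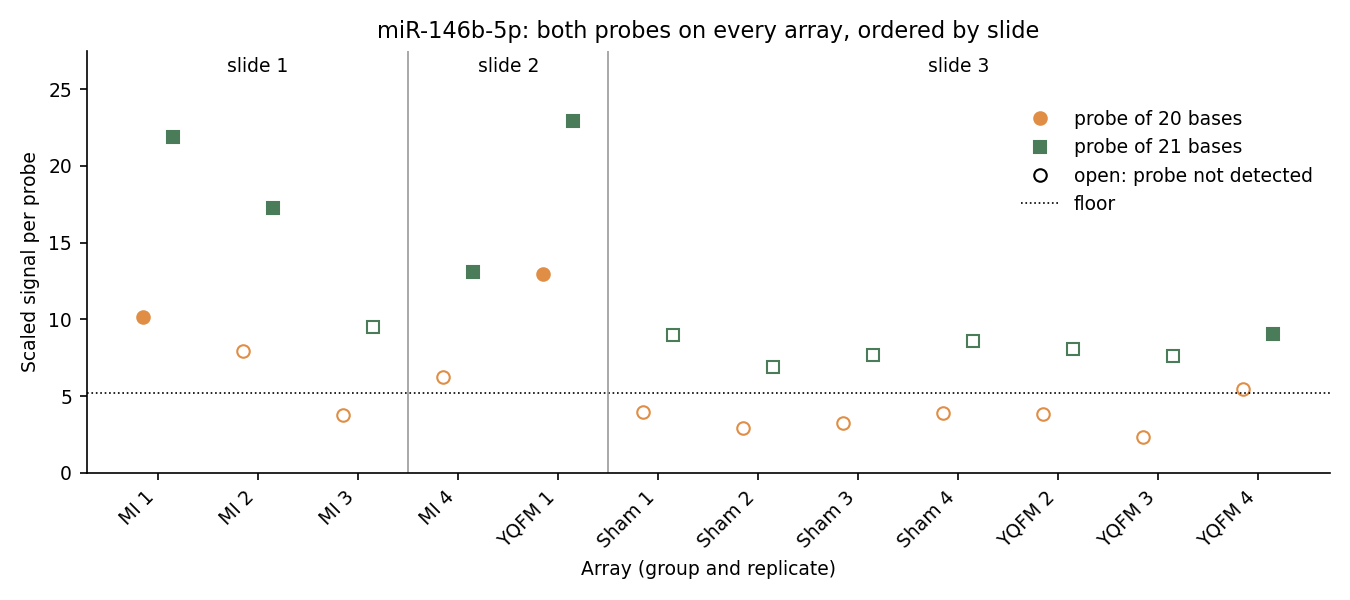
Scaled signal (linear) of the 2 array probes of miR-146b-5p on each of the 12 arrays, ordered by slide, with filled symbols where the probe was detected and the floor of 5.20 as a dotted line. On slide 3 both probes lie low in Sham and YQFM arrays alike, and the highest values are those of MI replicate 1 and YQFM replicate 1.

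Summed fibroblast markers were highest on the arrays picked here for their high miR-146b-5p, and these arrays also shared slides. The 4 arrays with the highest miR-146b-5p, which were YQFM replicate 1 and MI replicates 1, 2 and 4, had summed fibroblast marker signals (miR-199a-3p, miR-199a-5p, miR-214-3p and miR-21-5p, all 4 detected on all arrays) of 1543, 1104, 932 and 789. The other 8 arrays had sums from 380 to 561. The 4 arrays lay on slides 1 and 2, and all of the other 8 except MI replicate 3 (slide 1) lay on slide 3. miR-21-5p, the brightest of the 4 markers, weighed most in the sums. MI replicate 3, which was the MI array with the lowest miR-146b-5p, had a sum of 473. By group the sums were 380 to 561 in Sham, 473 to 1104 in MI and 488 to 1543 in YQFM. The summed leukocyte markers, mostly miR-150-5p, were 218, 213, 171 and 216 on the 4 arrays with the highest miR-146b-5p, which included the lowest of the 12 arrays (171). Other marker lists were summed too. Smooth muscle sums (miR-143-3p and miR-145-5p) were 551, 588, 436 and 604 on these 4 arrays and 381 to 611 on the other 8. Endothelial, erythrocyte and cardiomyocyte sums likewise overlapped between the 4 arrays and the other 8. The parts of the slide and of scar or fibroblast content in the difference were not tested.

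Both probes of miR-146b-5p covered positions 18 and 21, where it differs from miR-146a-5p, and its last 2 bases, which miR-146a-5p lacks. Paired from the same base, each left 4 bases of the probe mismatched or unpaired on miR-146a-5p. The probes of miR-146a-5p had 2 such bases on miR-146b-5p. In MI against Sham the log2 ratios were -0.01 for miR-146a-5p and 0.88 for miR-146b-5p, in YQFM against Sham they were 0.10 and 0.45, and both miRNAs were highest in YQFM replicate 1. The difference between the ratios of the 2 miRNAs was not tested. Signal taken from the other miRNA was not tested.

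Over the whole array, 19 of 263 miRNAs (7.22%) differed between MI and Sham at an adjusted p under 0.05, against 0 of the 5 members. At an unadjusted p under 0.05 limma gave 77 miRNAs (29.3%) and 1 member, miR-146b-5p. The methods' t-test gave 6 miRNAs after adjustment and 59 before it, with 0 and 1 members. The median log2 ratio of the 5 members was -0.01, beside -0.04 over all 263. The 4 members detected on all arrays had ratios between -0.11 and 0.01.

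**Figure D2:**
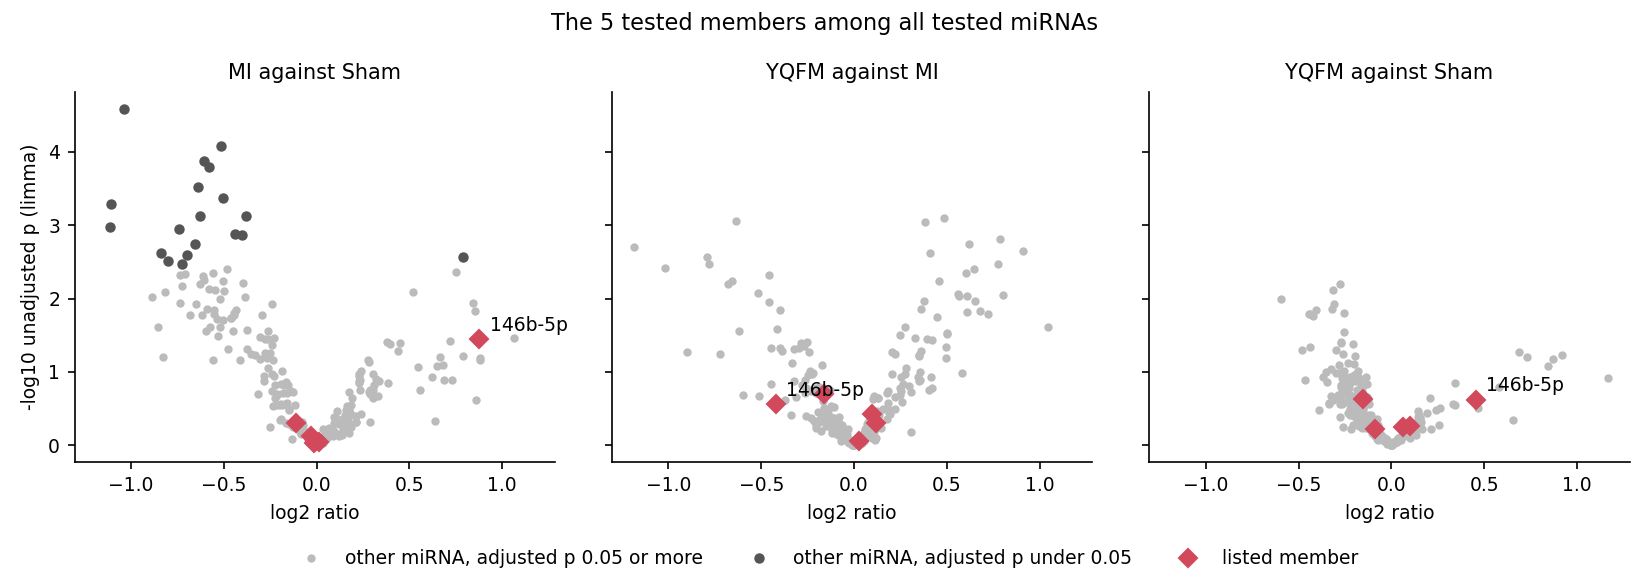
Log2 ratio (x axis) against -log10 of the unadjusted p from limma (y axis) for the 263 tested miRNAs in the 3 comparisons, with the 5 tested members as red diamonds and miRNAs at an adjusted p under 0.05 in dark grey. In MI against Sham 4 members sit at the foot of the plot near 0 and miR-146b-5p stands apart on the right, while 0 members are among the 19 dark points.

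YQFM against MI sets treated against untreated infarcted hearts. MI and YQFM shared only slide 2, with 1 array each, so drug and slide cannot be told apart over the other arrays. The comparison gave 0 calls by limma over all 263 miRNAs (0%) and 0 among the members. At an unadjusted p under 0.05 there were 50 miRNAs (19%) and 0 members, and the methods' t-test gave 0 after adjustment and 45 before it, with 0 members in either. The log2 ratios were 0.03 for miR-223-3p, 0.10 for miR-150-5p, -0.16 for miR-155-5p, 0.12 for miR-146a-5p and -0.42 for miR-146b-5p. The interval of miR-146b-5p ran from -1.23 to 0.39, so these arrays could not set a narrow limit on it. Those of the other 4 lay within -0.43 to 0.48. The ratio of miR-146b-5p depended on YQFM replicate 1, without which it was -0.81 (adjusted p = 0.0785 from limma), and without slide 2 it was -0.86 (adjusted p = 0.0615). On slide 2 miR-146b-5p was 0.89 higher on the log2 scale in YQFM replicate 1 than in MI replicate 4, opposite in sign to the value over all arrays, with 1 array each.

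YQFM against Sham likewise gave 0 calls by limma (0%) and 0 members. There were 15 miRNAs (5.7%) at an unadjusted p under 0.05, of which 0 were members, and the methods' t-test gave 0 after adjustment and 23 before it. The log2 ratios of the members ran from -0.15 for miR-155-5p to 0.45 for miR-146b-5p. Each group enters 2 of the 3 comparisons, so the ratios of a miRNA are not independent of each other.

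**Figure D3:**
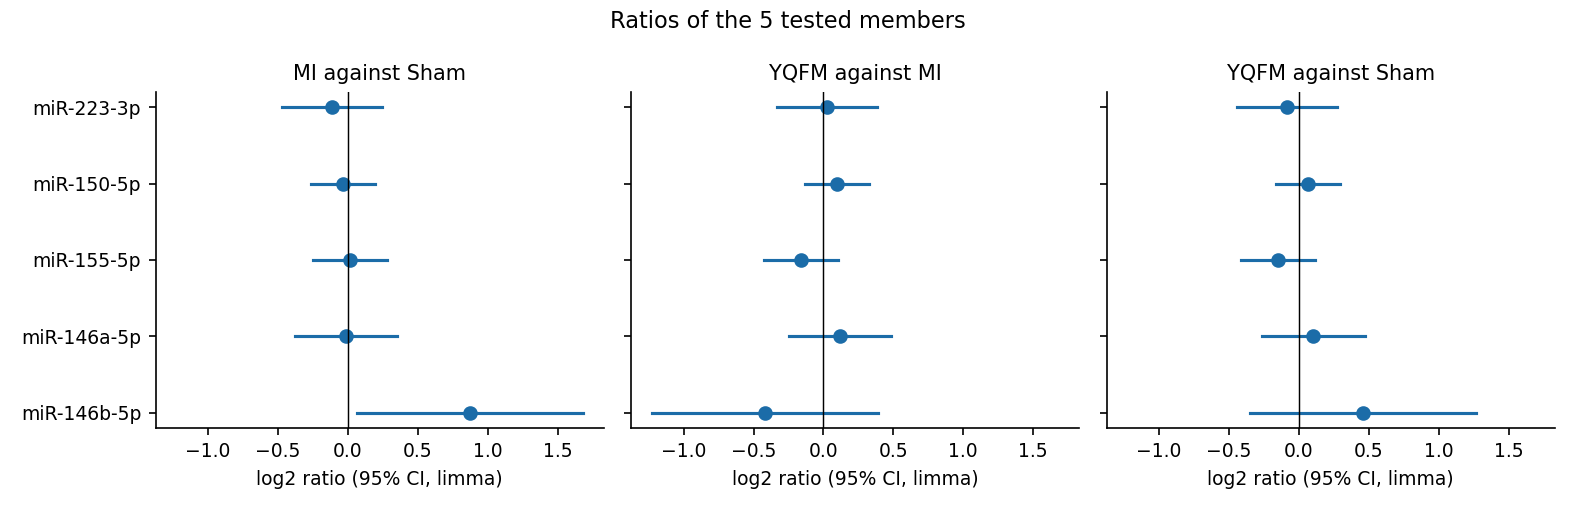
Log2 ratio (points) with its 95% confidence interval from limma (lines) for the 5 tested members in each comparison, 4 arrays per group. Of the 15 intervals, 14 cross 0, and that of miR-146b-5p in MI against Sham runs from 0.07 to 1.68.

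Other miRNAs enriched in blood cells gave 0 calls as well. Of 14 listed, 11 were tested, 9 were detected on all arrays and 3 on none, and 0 passed the adjusted threshold in any of the 3 comparisons (limma). In MI against Sham 3 of the 11 had an unadjusted p under 0.05, each with a negative ratio, a share near that over all 263 miRNAs (77, or 29.3%), of which 66 had a negative ratio. miR-181c-5p, a regulator of T-cell signaling, had a log2 ratio of -0.44 (adjusted p = 0.0839). miR-19b-3p and miR-92a-3p, both of the growth-promoting miR-17-92 cluster, had log2 ratios of -0.44 (adjusted p = 0.0861) and -0.24 (adjusted p = 0.153). The median over the list was -0.07. For YQFM against Sham miR-19b-3p was again at -0.44 (adjusted p = 0.452), with 3 of the 4 YQFM arrays on the slide of the Sham arrays.

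Of 18 other miRNAs linked to inflammation, 14 were tested, 11 were detected on all arrays and 2 on none, and 0 passed in any comparison at an adjusted or unadjusted p under 0.05 (limma). In MI against Sham the median log2 ratio over the list was 0.17, beside -0.04 over all tested miRNAs. miR-21-5p, an abundant miRNA of fibroblasts and macrophages, had a log2 ratio of 0.79 (standard error 0.379, adjusted p = 0.194). It reached 586, 407 and 461 on MI replicates 1, 2 and 4 and 650 on YQFM replicate 1, while MI replicate 3 and the remaining YQFM and Sham arrays lay between 169 and 249. On 3 arrays it was at 244, where it was itself the percentile used for scaling. The 4 arrays with the higher miR-21-5p were those with the highest miR-146b-5p, and they lay on slides 1 and 2. miR-23b-3p, a repressor of NF-kB signaling, had a ratio of 0.34 (adjusted p = 0.311), and miR-222-3p, which acts on vessel wall cells, a log2 ratio of YQFM to MI of 0.35 (adjusted p = 0.456).

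Likeness of pattern was measured as the root mean square difference of log2 signals over the 12 arrays, after each miRNA was centered on its mean, over the 201 miRNAs that every array detected. miR-223-3p was nearest to miR-143-3p (0.100) and miR-181a-5p (0.130), beside a median of 0.270 over all others and a difference of 0.212 from a flat line. miR-150-5p was nearest to miR-29c-5p (0.0831) and miR-383-5p (0.114), and the latter was hardly nearer than a flat line (0.121). miR-155-5p, at 0.160 from a flat line, was nearest to miR-3099 (0.0784) and miR-99b-3p (0.0819). miR-146a-5p, at 0.218 from a flat line, was nearest to miR-98-5p (0.131) and let-7a-5p (0.137). No member was among the nearest of another member. Within groups miR-155-5p was also steadier than most, at percentile 19.9 of the 201 in pooled SD, whereas miR-223-3p and miR-146a-5p stood near the middle at percentiles 48.8 and 51.7.

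**Figure D4:**
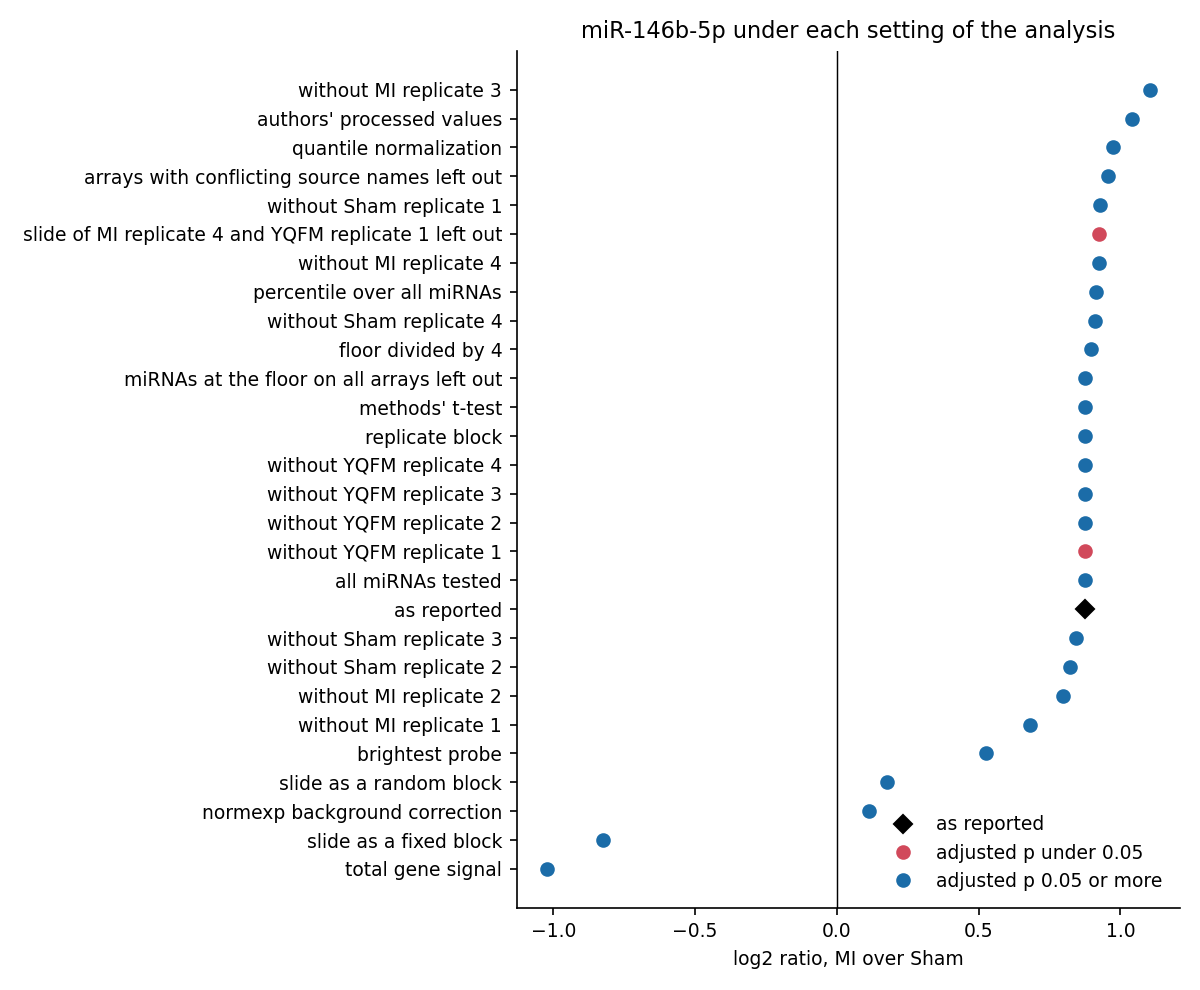
Log2 ratio of MI to Sham for miR-146b-5p (x axis) as reported (black diamond) and under each other setting of the analysis (circles), red where the adjusted p is under 0.05. The ratios run from -1.02 to 1.103, 2 are red, and with the slide as a fixed block or with the total gene signal the ratio is negative.

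The ratio of miR-146b-5p turned to -1.02 when the total gene signal of the scanner software was used in place of the spot signals. On 6 arrays that deposited total was 54.2 to 93.0 where the deposited processed table held 3.92 to 5.17 for the same miRNA, and on the other 6 both were equal within 0.2%. With the processed table the log2 ratio was 1.04 (adjusted p = 0.143 from limma). With normexp background correction, which adds an offset of 50 to the signals, it was 0.11 (adjusted p = 0.886 from limma). The scaled signals of miR-146b-5p without this correction ran only from 4.89 to 17.9. An offset of that size shrinks the ratio of such dim signals by itself. The normexp value therefore could not decide whether the groups differ in miR-146b-5p.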

How the data were processed

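MiRNA expression was measured with 1 single-dye Agilent array per rat, 4 rats per group. The authors deposited the scanner output (Feature Extraction 10.7.1.1 per the labels) with background-subtracted spot intensity values, not scaled between arrays, and a table of processed linear intensity values with a minimum of 0.1. The study names GeneSpring, and the text gives no normalization. Probe annotation refers to build rn4.

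Control and outlier spots were left out, spots of a probe and then probes of a miRNA were averaged, and scaling used each array's 75th percentile among 201 miRNAs that every array detected. Detection meant that over 50% of the spots of at least 1 probe of a miRNA were well above background. The 263 miRNAs detected on at least 2 of 4 arrays of a group were tested on log2 values with a floor of 5.20 by limma 3.58.1 (R 4.3.3) over all 12 arrays, two-sided, with Benjamini-Hochberg adjustment over the 263. The procedure was tested on simulated data. The p-values measure the spread between arrays within groups, which holds differences between rats and, in MI and YQFM, between slides. The fit treated all 12 arrays as independent, while the fit with the slide as a random block gave a correlation within slides of 0.453. Precision is limited by how many arrays there were. Figures were drawn with matplotlib 3.10.9 (Python 3.11.15, pandas 2.3.3).

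All 7 members were named. Of each further list up to 3 miRNAs were named, by the smallest unadjusted p in MI against Sham or YQFM against MI, and for each member detected on all arrays the 2 miRNAs of most similar pattern. The members, the lists and the tests were chosen with earlier results of these data known. The alternatives were normexp (offset 50), the total gene signal, the values processed by the authors, the percentile over all miRNAs, quantile normalization, the floor divided by 4, other filters, the brightest probe, leaving out arrays, the replicate number or slide as a block, and the t-test.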

Additional observations from a re-analysis of the deposited data

How the results depend on the processing

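Of 427 values of members under alternatives, 50 changed sign and 2 passed the threshold. The 427 are not separate results, since they share arrays and some settings repeat a value. With the slide as a fixed block, YQFM against MI is the difference of YQFM replicate 1 and MI replicate 4 on slide 2 (0.89 for miR-146b-5p). Without YQFM replicate 1, 1 member was called in MI against Sham instead of 0, and leaving out each array in turn otherwise gave 0. Without slide 2, chosen after seeing the data, 1 member was called in MI against Sham (miR-146b-5p, 0.92 on the log2 scale). Signal over background limited miR-142 and miR-146b-5p. The cause of the changes below was not tested.

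The total number of miRNAs called for MI against Sham, 19 as reported, was 0 with normexp, with the total gene signal and with the slide as a fixed or random block, 2 with quantile normalization or the brightest probe, 3 with the percentile over all miRNAs, 6 by the methods' t-test, 7 among miRNAs detected on all arrays, 58 without the 2 arrays of conflicting labels, 69 without slide 2, and 29 without the 2 tested miRNAs that lay at the floor on all arrays (the latter 2 settings were chosen after seeing the data). Leaving out 1 array gave 4 (without MI replicate 2 or 3) to 62 (without MI replicate 4), with 29 without YQFM replicate 1. For YQFM against MI the number, 0 as reported, was 28 without the arrays of conflicting labels, 55 without slide 2, 1 with the brightest probe, 2 with quantile normalization, and 0 to 28 when 1 array was left out (28 without MI replicate 4 and 23 without YQFM replicate 1). A fit to all 758 miRNAs was limited to the 314 that varied, since the other 444 lay at the floor on all arrays.

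Replicate numbers were not treated as pairs. Of 12 same-numbered pairs, 6 had deviations correlated above 0.1, and the 12 ran from -0.64 to 0.34. Pairs of different numbers were not compared, so this does not settle whether the numbers pair the samples. With the replicate number as a block 10 miRNAs were called for MI against Sham and no call of a member changed.

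Signs turned as follows, in log2 ratios. In MI against Sham, miR-146b-5p was -0.83 with the slide as a fixed block and -1.02 with the total gene signal. miR-223-3p was 0.22 with the brightest probe and 0.0672 with the total gene signal. miR-150-5p was 0.23 with the brightest probe, 0.0599 with the percentile over all miRNAs, 0.15 with the total gene signal and 0.0556 with the slide as a fixed block. miR-155-5p was -0.18 and -0.0516 with the slide as a fixed and a random block. miR-146a-5p was 0.27 with the brightest probe, 0.0784 with the percentile over all miRNAs, 0.0441 with quantile normalization, 0.17 with the total gene signal, 0.0870 without the arrays of conflicting labels and 0.00668 without slide 2. In YQFM against MI, the brightest probe gave -0.0487 for miR-146a-5p, -0.0546 for miR-150-5p and -0.15 for miR-223-3p. miR-223-3p was -0.00895 with normexp, -0.0337 with the total gene signal and -0.00431 without slide 2. miR-146b-5p was 0.89 and 0.0818 with the slide as a fixed and a random block and 0.49 with the total gene signal. With the slide as a fixed block miR-150-5p was -0.00445 and miR-155-5p 0.0360. miR-146a-5p was -0.0580 without slide 2. In YQFM against Sham, miR-223-3p was 0.0645 with the brightest probe, 0.0294 with the percentile over all miRNAs, 0.00754 with quantile normalization and 0.0335 with the total gene signal, miR-146a-5p was -0.0513 with the slide as a block, within slide 3 and without slide 2, and miR-146b-5p was -0.53 with the total gene signal. The brightest probe moved the median of all ratios of MI to Sham from -0.04 to 0.14 and the YQFM to MI median from -0.01 to -0.10.

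Leaving out 1 array in turn gave these ranges for members whose sign turned. In MI against Sham they were -0.10 to 0.0659 for miR-146a-5p, -0.0789 to 0.0274 for miR-150-5p and -0.11 to 0.0841 for miR-155-5p. In YQFM against MI they were -0.0369 to 0.20 for miR-146a-5p and -0.0811 to 0.14 for miR-223-3p. In YQFM against Sham they were -0.0513 to 0.18 for miR-146a-5p, -0.00511 to 0.11 for miR-150-5p and -0.19 to 0.0244 for miR-223-3p. For miR-146b-5p the range in MI against Sham was 0.68 to 1.103 and in YQFM against MI -0.81 (without YQFM replicate 1) to -0.21 (without YQFM replicate 3), with no change of sign.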
